A study of Xenopus laevis with 2 samples.

Results

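Motor proteins move cargo along the cytoskeleton. Kinesins mostly walk towards the growing ends of microtubules, which in axons point away from the cell body, cytoplasmic dynein walks back towards the cell body with the help of the dynactin complex, and myosins work on actin filaments, which are dense in the growth cone. Each motor is built from heavy chains that carry the ATP-driven motor domain and, in many cases, from light or intermediate chains that stabilize the heavy chains or bind cargo.

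The mRNAs of these proteins were examined in axons of Xenopus laevis retinal ganglion cells (RGCs), the neurons that connect the eye to the brain. The members are the gene names that hold a symbol of a kinesin, a kinesin light chain, a subunit of cytoplasmic dynein or dynactin, a myosin (of class II, the non-muscle and smooth muscle heavy chains only) or 1 of the myosin light chains myl6, myl9 and myl12. They number 114 of the 49349 gene names listed. These stand for 79 symbols as written, since the allotetraploid genome carries many genes as an L and an S homeolog. Counted apart are kif22 and kif22-a, and also myo6 and myo6-like, whose names share the same intervals. Of the 114, 84 encode heavy chains, 13 light chains, 6 dynein intermediate or light intermediate chains and 10 dynactin subunits, and 1 encodes the kinesin-binding protein kif1bp, which matches the symbol rule but is not a motor.

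The series has a single group, RGC axons, with 2 replicate RNA-seq libraries and no treatment or genotype named in the labels. For each library 500 eyes, taken from embryos between stages 33/34 and 37/38, were cultured for 48 hours on a membrane whose 1 µm pores let axons but not cell bodies pass, and the side with the cell bodies was discarded. The axonal cDNA was amplified by PCR before sequencing. Values are FPKM, fragment numbers divided by transcript length and library size, so levels of different genes are compared per length. With 1 group there is no contrast to test, and all comparisons below are descriptions over 2 libraries.

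Some facts of the whole libraries bear on the motor mRNAs. Without read counts the total depth stays unknown. The most common ratio between low values puts the depth of replicate 1 at 3.71 times that of replicate 2. This takes that ratio to stand for equal read numbers in both libraries, which could not be checked in these data. Above 0 were 3148 gene names in replicate 1 and 2873 in replicate 2. Since a 0 can be a failed estimate, "listed at 0" does not mean that an mRNA was absent. Of 10 markers of RGCs and axons, gap43 and stmn2 were over 1 FPKM in both libraries and the other 8 were listed at 0. In replicates 1 and 2, stmn2.L had 280 and 120 FPKM and stmn2.S 262 and 719 FPKM. The marker gap43 was low, with 2.85 and 3.11 FPKM for its L name and 0.197 and 0 FPKM for its S name. The study states that RT-PCR and staining for factors of cell bodies and nuclei bore out the purity of such axons. Among markers of other eye cells, dct of the pigment epithelium had 86.8 and 63.9 FPKM in replicates 1 and 2 and 3 of 5 markers were at 0, while of 3 listed Muller glia markers glul had 8.58 and 58.4 FPKM, rlbp1.L had 11.3 and 4.94 FPKM and slc1a3 was at 0. Of 5 photoreceptor markers 0 were over the limit. The part of such cells in the motor values was not tested, and in a bulk sample fewer cells or axons of a kind and less RNA in each cannot be told apart.

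Most motor mRNAs were not detected. Taking FPKM over 1 in both libraries as detected, 10 of the 114 motor names (8.77%) passed, against 4.39% of all gene names and 8.46% of the gene names that carry a symbol. Motor names were thus detected about as often as other genes with a symbol. A value above 0 in at least 1 library was given to 22 of the 114 (19.3%), against 6.76% of all gene names and 12.7% of those with a symbol, and 92 were listed at 0 in both. The median over all 114 names was 0 FPKM, as it was over all gene names. The motor share of all FPKM was 0.119% in replicate 1 and 0.13% in replicate 2, while they make up 0.231% of the gene names.

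**Figure D1:**
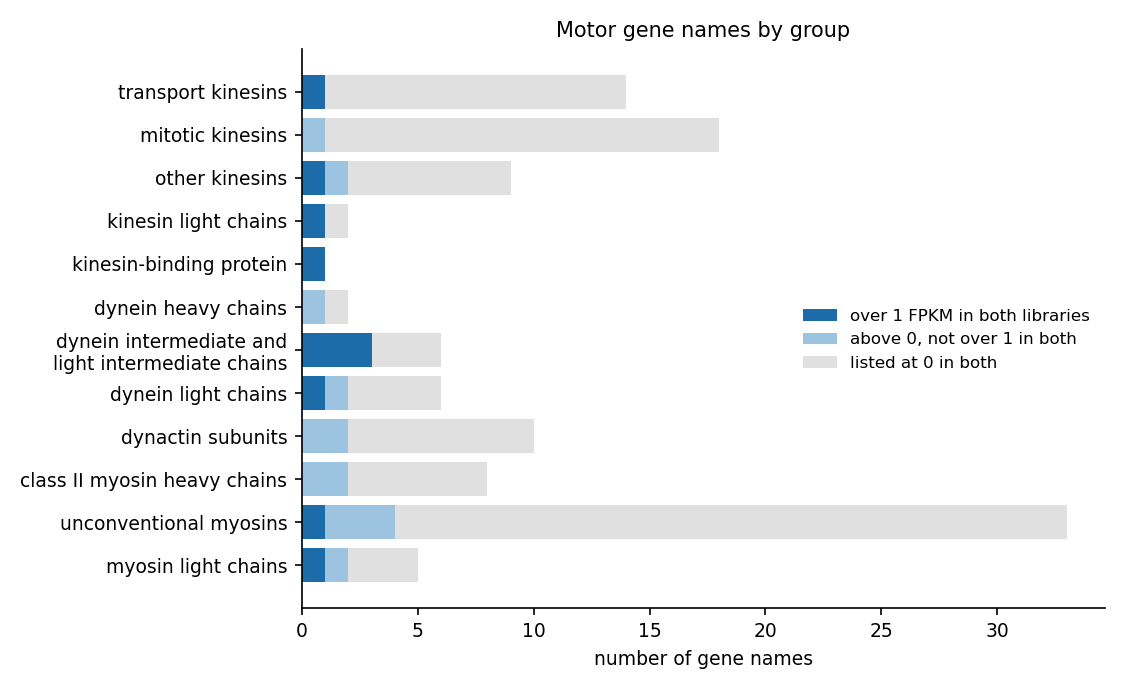
Number of motor gene names per group (x axis), split into names over 1 FPKM in both RGC axon libraries, names above 0 but not over 1 FPKM in both, and names listed at 0 in both. The dynein intermediate and light intermediate chains had 3 of 6 names over the limit, and the unconventional myosins 1 of 33.

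The detected motor mRNAs were not spread in equal shares over the motor classes or over their chains. Of the 14 dynein names 4 were detected, of the 43 kinesin names 3, of the 46 myosin names 2 and of the 10 dynactin names 0, and the remaining detected name was kif1bp. Heavy chains passed in 3 of 84 names (3.57%), light chains in 3 of 13 (23.1%) and dynein intermediate or light intermediate chains in 3 of 6. Of all gene names with a symbol, 8.46% passed. The shares of classes and chains rest on few names, and no test of the difference was made. Transcript lengths were not used here, and how far the PCR-based amplification favours short transcripts over the long ones of heavy chains was not tested.

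**Figure D2:**
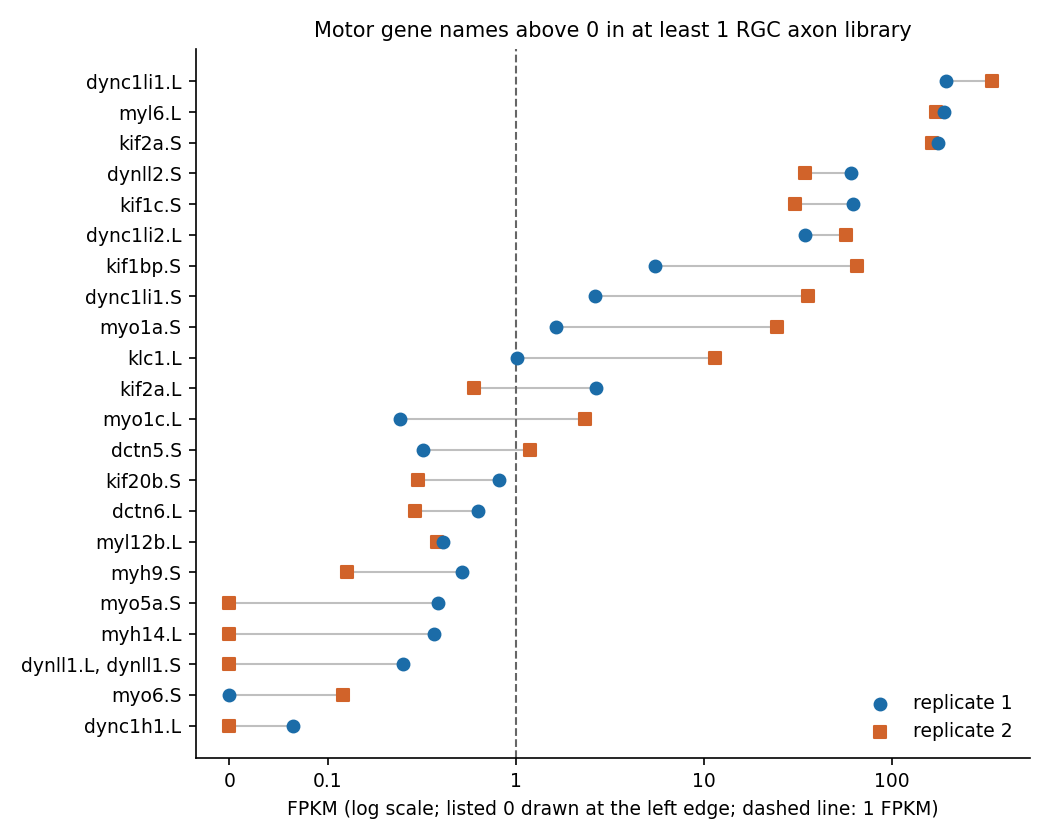
FPKM (x axis, log scale) of the 22 motor gene names above 0, one row per name, with a circle for replicate 1 and a square for replicate 2. The 3 highest names, dync1li1.L, myl6.L and kif2a.S, were over 100 FPKM in both libraries, and 12 names lie at least in part below the dashed line at 1 FPKM.

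Cytoplasmic dynein gave the highest value among the motor names found by symbol. LOC414678, which a later gene table described below pairs with myl6.S, was higher in replicate 1, with 207 FPKM. In replicate 2 it was lower, with 89.2 FPKM. The light intermediate chain dync1li1, which joins the dynein heavy chain to the adaptors that select cargo, had 194 and 341 FPKM in replicates 1 and 2 from its L homeolog (chr6L:48216412-48235104 in the v9.2 genome). By the mean of both libraries this was rank 340 of the 2168 gene names detected. The interval is shared with 2 gene models that have no symbol and are listed at 0. The S homeolog (chr6S:41754026-41775849) had 2.66 and 35.8 FPKM, so the L name was higher in both libraries, by 73.2-fold in replicate 1 and 9.52-fold in replicate 2.

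The paralog dync1li2, the other light intermediate chain, had 34.6 and 57.3 FPKM in replicates 1 and 2 from its L name (Scaffold51:1124614-1158167), and its S name was listed at 0 in both. Light intermediate chains were therefore seen from both genes, and each time mostly or wholly under the L name. How reads were split between near-identical homeologs is not known, which makes these folds uncertain.

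Among the dynein light chains, dynll2.S (chr2S:60218507-60222627) had 60.9 and 34.8 FPKM in replicates 1 and 2. It encodes a small dimeric hub that binds the dynein intermediate chain and also many proteins outside dynein, myosin V among them. Its paralog dynll1, whose L and S loci stand under 1 name, had 0.252 FPKM in replicate 1 and was listed at 0 in replicate 2. The light chains dynlrb1.S, dynlrb2.L, dynlt1.L and dynlt3.L were listed at 0.

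The remaining dynein chains were low or listed at 0. The heavy chain dync1h1.L, which carries the motor domain, had 0.0656 FPKM in replicate 1, the lowest value above 0 of any motor name there, and was listed at 0 in replicate 2. The intermediate chain dync1i2.S, which binds dynactin, was listed at 0, as were dync2h1.L and dync2li1.S of the dynein that works inside cilia. The mRNAs of 1 complex were thus listed at very unequal levels per length, from dync1li1.L down to dync1h1.L. How far the PCR-based amplification of long and short transcripts shapes these levels was not tested.

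Of dynactin, the cofactor that couples dynein to cargo, 0 of the 10 names with a dctn symbol were over the limit in both libraries. Of all gene names with a symbol, 8.46% were. The dynactin subunits dctn5 and dctn6, which sit at the pointed end of its filament, were the ones of the 10 above 0. The S name of dctn5 had 0.322 and 1.19 FPKM in replicates 1 and 2, and the L name of dctn6 had 0.628 and 0.291 FPKM. The interval of dctn5.S is shared with palb2.S, which is listed at 0. The other 8 names, for dctn1, dctn2, dctn3 and dctn4, were listed at 0, including the large subunit dctn1, which binds microtubules.

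Of the kinesins, kif2a was the highest. It does not walk but takes tubulin off microtubule ends, and in the mouse it limits the growth of collateral axon branches. Its S name (Scaffold53:39254-97251) had 177 and 164 FPKM in replicates 1 and 2, the closest agreement between libraries of any detected motor mRNA. The L name had 2.67 and 0.6 FPKM, so the S name was higher by 66.2-fold in replicate 1 and 273-fold in replicate 2. The size of these folds is uncertain. The L value in replicate 2 lay under the limit of 1 FPKM, and how reads were split between homeologs is not known.

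Among kinesins that carry cargo, 1 of 14 heavy chain names was detected, beside 8.46% of all gene names with a symbol. It was kif1c, a vesicle motor. Its S name (Scaffold20:6723723-6766764) had 62.3 and 30.6 FPKM in replicates 1 and 2. The names of kif1a and kif1b, which carry synaptic vesicle precursors and mitochondria, of kif3a and kif3b, which form kinesin-2, of kif5b and kif5c, the heavy chains of kinesin-1, and of kif13b, kif17 and kif21a were all listed at 0 in both libraries.

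The kinesin light chain klc1, through which kinesin-1 binds cargo, was detected, while the names of the kinesin-1 heavy chains were listed at 0. The name on chromosome 8L (chr8L:74961292-75029144) had 1.02 and 11.5 FPKM in replicates 1 and 2, and its interval is shared with xrcc3.L, which is listed at 0. A second klc1.L name, which the files place on chromosome 8S (chr8S:10841079-10896222), was listed at 0. The kinesin-binding protein kif1bp, which attaches to the motor domains of some kinesins and keeps them off microtubules, had 5.55 and 65.2 FPKM in replicates 1 and 2 from its S name (chr7S:22363019-22378374). Both mRNAs were far lower in replicate 1.

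Kinesins of the mitotic spindle gave 0 detected of 18 names, beside 8.46% of all gene names with a symbol. With so few names a count of 0 says little. Only kif20b.S was above 0, with 0.815 and 0.302 FPKM in replicates 1 and 2, and the names of kif11, kif14, kif15, kif18a, kif18b, kif20a, kif22, kif23, kif2c, kif4a and kifc1 were listed at 0. Of 9 markers of proliferating cells, 6 were listed at 0, while pcna had 150 and 74.3 FPKM in replicates 1 and 2. The kinesins kif7, kif9, kif19 and kif24, known mostly from cilia and centrioles, and kifc3 were listed at 0. The 21 names of axonemal dyneins, the motors of beating cilia, and the 4 markers of ciliated cells were listed at 0 too.

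Myosin was represented mainly by a light chain. The essential light chain myl6, which stiffens the lever arm of non-muscle and smooth muscle myosin II, had 189 and 171 FPKM in replicates 1 and 2 from its L name (chr2L:138507670-138515642). The regulatory light chain myl12b, whose phosphorylation switches the motor on, had 0.412 and 0.382 FPKM from its L name and was listed at 0 under its S name, as was myl9 under both. Among the 8 names of class II heavy chains, myh9.S had 0.516 and 0.128 FPKM and 1 name of myh14.L had 0.37 FPKM in replicate 1 and 0 in replicate 2. The names of myh10 and myh11 were listed at 0.

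Beside 8.46% of all gene names with a symbol, 1 of the 33 names of unconventional myosins was detected. These myosins carry cargo or tether membranes to actin, and the 1 detected was myo1a. Its S name (chr2S:121660163-121715764) had 1.64 and 24.6 FPKM in replicates 1 and 2, and its L name was listed at 0. The gene is best known from the brush border of the mammalian gut. Next was the membrane motor myo1c.L, with 0.242 and 2.34 FPKM. The vesicle motor myo5a.S had 0.389 FPKM in replicate 1 only, and myo6.S, whose product walks towards the minus ends of actin filaments, had 0.12 FPKM in replicate 2 only. The other 29 names, among them myo10, a motor of filopodia, were listed at 0.

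Markers of contractile cells were read beside the myosins. Of the 9 markers of skeletal and cardiac muscle that are listed, 8 were at 0 and 0 were over the limit. Of the 7 listed markers of smooth muscle and connective tissue, 5 were at 0, while acta2 had 20.4 and 210 FPKM in replicates 1 and 2 and col1a1.S had 27.5 and 27.9 FPKM. The part of such cells in the myosin values was not tested.

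By sum, the chains divided the motor signal differently in the libraries. The summed FPKM of all motor names was 736 in replicate 1 and 941 in replicate 2, and 3 names, dync1li1.L, myl6.L and kif2a.S, held 76.2% and 71.8% of it. Light chains took 34.2% in replicate 1 and 23.2% in replicate 2, heavy chains 33.4% and 23.7%, and dynein intermediate and light intermediate chains 31.5% and 46.1%. By class, dynein took 39.8% and 49.8%, kinesin 33.1% and 22%, and myosin 26.2% and 21.1%. Light chains were ahead of heavy chains in replicate 1 and behind them in replicate 2, and kif2a.S and kif1c.S made up most of the heavy-chain sum in both. These orders depend on which names are counted. With the names that the later gene table described below pairs with motor symbols, above all an S homeolog of myl6, light chains took 48.5% and 29.5% and were ahead of heavy chains, with 26.1% and 21.4%, in both libraries. Myosin then took 42.3% and 27.6%, dynein 31.2% and 46.1% and kinesin 25.8% and 19.9%, so that myosin rather than dynein was the highest class in replicate 1 and myosin passed kinesin in both.

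**Figure D3:**
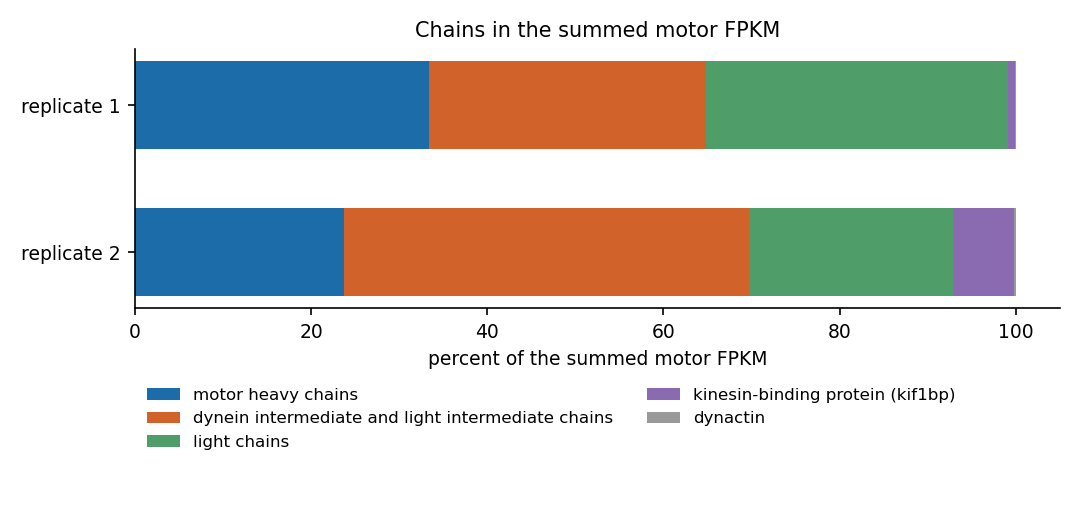
Percent of the summed motor FPKM (x axis) taken by each kind of chain in replicate 1 and replicate 2. Dynein intermediate and light intermediate chains took 31.5% in replicate 1 and 46.1% in replicate 2, and dynactin is too small to see.

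The detected motor mRNAs ranged from high to low among detected genes. Their median was 47.8 and 46.5 FPKM in replicates 1 and 2, beside 27.3 and 31.0 FPKM over all 2168 names over the limit. Above those medians lay 6 of the 10 in replicate 1 and 7 in replicate 2. Their ranks by the mean of both libraries ran from 340 for dync1li1.L, 436 for myl6.L and 454 for kif2a.S to 1825 for klc1.L, with 7 above and 3 below the middle rank of the detected names.

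Agreement between the libraries split the 10 detected names into 6 that differed less and 4 that differed widely. For dync1li1.L, dync1li2.L, myl6.L, kif2a.S, dynll2.S and kif1c.S, the ratio of replicate 2 to replicate 1 ran from 0.491 to 1.75. For kif1bp.S, dync1li1.S, myo1a.S and klc1.L it ran from 11.3 to 15.1. A ratio over 8 was thus found for 4 of 10 motor names, against 10.6% of all 2168 names over the limit. The ratio of 8 was chosen after the values were seen. As wide a difference the other way was found for 0 of the 10 and for 5 of the 2168. Wide differences thus lay mostly towards replicate 2 among all detected names. The median absolute log2 ratio, on FPKM + 1, was 0.90 over the 10 names and 0.98 over all detected names. The mean levels of those 4 names rest mainly on replicate 2, the shallower library by the estimated depth ratio.

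**Figure D4:**
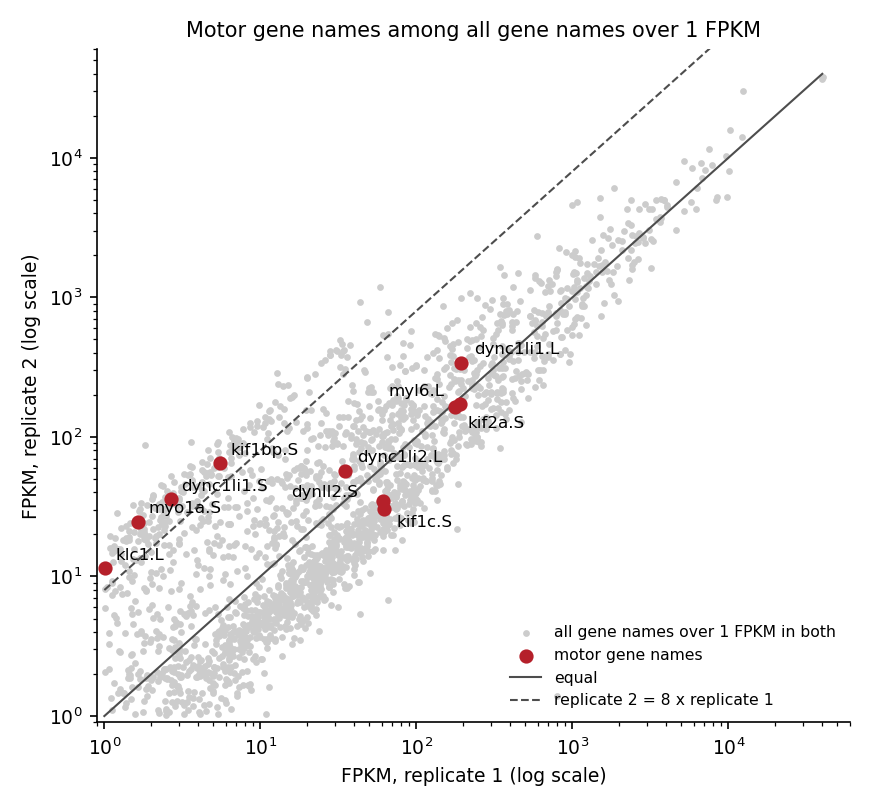
FPKM in replicate 1 (x axis) and replicate 2 (y axis), both on log scales, for the 2168 gene names over 1 FPKM in both libraries (gray) and the 10 motor names among them (red). The 4 motor names kif1bp.S, dync1li1.S, myo1a.S and klc1.L lie above the dashed line where replicate 2 is 8 times replicate 1. The other 6 lie below it, on either side of the line of equal values.

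The lowest motor values were compared with ratios of whole reads. For 6 of the 7 motor names between 0 and 5 FPKM in both libraries, the ratio of the values, divided by the depth ratio of 3.71, came within 0.2% of a ratio of whole numbers up to 15. The exception was kif2a.L. The same held for 59.4% of the 621 gene names in that range. The depth ratio is itself the most common ratio among those 621 names, held by 44 of them, dctn5.S included. The match of dctn5.S is therefore no separate support, and how many names would match at random was not worked out. The smallest whole reads that give the ratio were 8 in replicate 1 and 1 in replicate 2 for dctn6.L, 10 and 1 for kif20b.S, 4 and 1 for myl12b.L, 15 and 1 for myh9.S, 1 and 1 for dctn5.S, and 5 and 13 for myo1c.L, and the same multiple of both numbers would give it as well, so the read numbers themselves are not known.

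Some motor genes stand in the files under identifiers alone. A gene table of the later assembly v10.1, used after the values were seen and for names only, paired 20 more gene names with a motor symbol by gene ID or older symbol, of which 16 were listed at 0 and 3 passed the limit. LOC414678, paired with myl6.S, had 207 and 89.2 FPKM in replicates 1 and 2. For this myosin light chain the S homeolog was 1.09-fold higher in replicate 1 and the L homeolog 1.92-fold higher in replicate 2. Neither led in both libraries, unlike in the one-sided pairs of kif2a and dync1li1. LOC108701369, paired with dync1i2.L, had 1.35 and 3.95 FPKM, which places the dynein intermediate chain just over the limit. The name wdr60.L, paired with dync2i1.L of the ciliary dynein, had 1.05 and 8.42 FPKM. Among those listed at 0 was the name paired with dynll2.L. With these names, 13 of 134 (9.70%) passed.

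Genes that work with the motors were read from a list of adaptors, regulators and further complex members. The list was chosen with earlier results of these data known, so its share detected is not independent of them. Of its 60 gene names, 10 (16.7%) were over 1 FPKM in both libraries, against the 4.39% of all names and 8.46% of names with a symbol given above, and 24 of the 36 symbols listed were at 0 under every name. The highest by far was mprip.L, with 3289 and 2556 FPKM in replicates 1 and 2, rank 44 of all gene names. It encodes a protein that ties myosin phosphatase and RhoA to actin filaments. The catalytic subunit of that phosphatase, ppp1cb, had 31.0 and 90.1 FPKM under a name that joins both homeologs. Another ppp1cb name had 0.138 and 0.512 FPKM. Of the 15 names of myosin regulators on the list, 2 (13.3%) passed, mprip.L and this joint ppp1cb name. The regulator ppp1r12a.S had 0.0869 FPKM in replicate 1 and 0 in replicate 2, and ppp1r12a.L, mylk and rock2 were listed at 0. A further name, ppp1r12a-like.L, had 6.2 and 31.5 FPKM in replicates 1 and 2. It lies over the limit but outside these counts, because the list was matched by exact symbol.

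**Figure D5:**
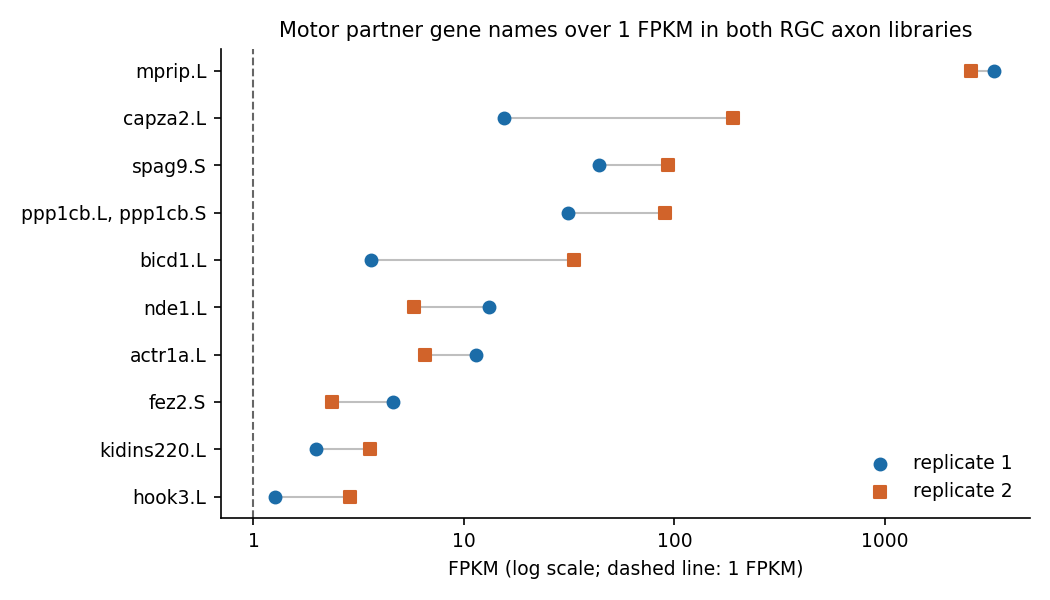
FPKM (x axis, log scale) of the 10 motor partner gene names over 1 FPKM in both RGC axon libraries, with a circle for replicate 1 and a square for replicate 2. The highest, mprip.L, had 3289 and 2556 FPKM, and bicd1.L and capza2.L were over 8 times higher in replicate 2.

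Of the 28 adaptors and regulators of kinesin and dynein on the list, 22 are listed, of which 6 passed and 16 were at 0 under every name. By gene name 6 of 36 (16.7%) passed, beside 8.46% of all gene names with a symbol. Among those at 0 were pafah1b1, ndel1, trak2, rhot1, bicd2 and hook1. The adaptor spag9, which links vesicles to kinesin-1 and to dynactin, had 44.0 and 92.7 FPKM in replicates 1 and 2 from its S name. The dynein adaptor bicd1.L had 3.62 and 33.5 FPKM, and hook3.L, an adaptor that binds the same light intermediate chains, had 1.26 and 2.88 FPKM. The dynein regulator nde1.L had 13.2 and 5.79 FPKM, and the kinesin adaptors fez2.S and kidins220.L had from 1.99 to 4.61 FPKM.

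Of the 9 names for the rest of the dynactin complex, outside the dctn names, 2 (22.2%) were over the limit in both libraries. Of all gene names with a symbol, 8.46% were. The names of actr10 and capza1, the S names of actr1a and capza2 and another capzb.L name were listed at 0. The actin-related protein actr1a.L, which forms the filament, had 11.4 and 6.56 FPKM in replicates 1 and 2. The capping protein capza2.L, which also caps ordinary actin filaments, had 15.5 and 189 FPKM, and capzb.L had 3.27 FPKM in replicate 1 and was listed at 0 in replicate 2. The highest value of any dctn name was 1.19 FPKM, for dctn5.S in replicate 2.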

How the data were processed

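Both deposited files hold 1 FPKM value per row. The authors mapped the reads with HISAT2 2.1.0 to the X. laevis v9.2 genome and estimated FPKM with Cufflinks 2.1.1. The annotation is not given in the sources used here. The amplified cDNA carries PCR error that FPKM does not show.

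Rows of 1 gene name were summed, and members were found by symbol. The members and gene lists were chosen with earlier results of these data known. The limit, FPKM over 1 in both libraries, is the one the study used for its GO analysis. Log ratios used a pseudocount of 1. Start positions were changed to count from 1. Every member over the limit was named, and partner genes likewise, except 1 family of partner genes that is not reported here and was left out of the counts. The member search was tested on made-up names. The depth ratio was tested on simulated reads that did not model PCR amplification, which does not check the ratio in these data. Alternatives were other limits, row handling, homeolog merging, pseudocounts and leaving out each library. The comparison by protein length that had been planned was not made, and no protein sequences were used here. Analyses ran in Python 3.11.15 (pandas 2.3.3, numpy 2.4.6) and plots in matplotlib 3.10.9.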

Additional observations from a re-analysis of the deposited data

How the results depend on the processing

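The count of detected motor names, 10, was 17 with FPKM over 0 in both libraries, 6 with FPKM over 10, and 5 without the names that hold a comma. The heavy-chain count, 3, was 7 with FPKM over 0 and 0 without the names that hold a comma, since kif2a.S, kif1c.S and myo1a.S all stand beside a second identifier. It was 4 with kif1bp counted as a heavy chain. The light-chain count, 3, ran from 2 to 4. With a single library, 11 to 12 motor names were over the limit. The light-chain share of the motor FPKM, 28.7% on average, was 41.7% without names that hold a comma, 41.4% without dync1li1.L and 39.0% with the names paired by the v10.1 table. The motor share of all FPKM, 0.124%, was 0.115% without names that hold a comma, 0.166% with the 10 highest names left out of the total and 0.148% with the paired names. These shifts follow from the names left out or added. The count of 4 names over 8-fold higher in replicate 2 was 4 at a 4-fold limit and 0 at a 16-fold limit. The unknown total depth and 2 libraries limit all low values.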
